A study of Mus musculus with 25 samples.

Results

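The 8 libraries of 2-cell mouse embryos cultured with VCD (n = 4) or with PBS (n = 4) were compared across every gene that reached 1 FPKM in 4 or more of the 8 libraries. FPKM is fragments scaled to transcript length and to the depth of the library. The rule kept 11369 of 34228 listed genes (33.2%), and the 8 libraries were part of 25 in a series that also holds MII oocytes and morulae. VCD is a small molecule known here only by that label, and neither its full name nor its dose is given in the sources used here. PBS, phosphate-buffered saline, was the control. All animals were of strain C57BL/6 and no genotype beyond the strain is given. Oocytes were matured in M16 medium for 16 h and fertilized in culture for 6 h. Embryos were then kept in droplets of G1 medium, and 2-cell embryos were scored 24 h later, so both groups had passed through the same culture, which held VCD or PBS. RNA was read by Smart-seq2, a protocol that copies whole transcripts from minute samples. The labels do not say how many embryos each library held or whether the libraries came from separate animals or cultures, so p-values reflect no more than the variation among these libraries.

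A mouse zygote starts with RNA and protein stored by the oocyte. At the 2-cell stage most of that stored RNA is being degraded while transcription from the embryonic genome starts on a broad scale, and bursts of genes such as the Zscan4 and Tdpoz families and Zfp352 mark this switch. Mitochondrial DNA is transcribed separately from the nuclear genome, and the proteins it codes for join nuclear-coded subunits in the respiratory chain. Small nucleolar RNAs, which guide the chemical modification of ribosomal RNA, are mostly cut out of the introns of host genes.

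The genes of smallest p included several short RNAs and copies of other genes, and their sequences show what the values rest on. Rnu73b, the gene of smallest p, is a small nucleolar RNA of 71 bases at chr3:86140618-86140688 on the minus strand, within Rps3a1, a ribosomal protein gene of the same orientation (GENCODE M21 annotation, build GRCm38, like all positions given here). Snord73a, of 68 bases at chr3:86138791-86138858, lies inside the same host gene and is named here only as its neighbour. They are printed for comparison with TGATGA (the C box motif) and CTGA (the D box motif) in capitals:
Rnu73b: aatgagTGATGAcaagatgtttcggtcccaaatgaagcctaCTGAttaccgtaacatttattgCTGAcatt
Snord73a: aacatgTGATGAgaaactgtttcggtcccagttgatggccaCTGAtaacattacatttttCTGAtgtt
Both sequences held 1 TGATGA and 2 CTGA, which did not overlap each other. Of 343 annotated small nucleolar RNAs of 60 to 90 bases, 72.3% held both motifs on the RNA strand and 0.292% on the other strand, so most RNAs of this class and length hold them.

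mt-Atp6, which codes for a subunit of the mitochondrial ATP synthase, has a nuclear copy, Gm10925, an unprocessed pseudogene on chromosome 1. The annotated copy had 678 bases, all identical to the first 678 of the 681 bases of mt-Atp6. Their ends are shown, with the 3 bases found only in the annotated mitochondrial gene in capitals (chrM:8548-8607, plus strand, and chr1:24613974-24614030, minus strand):
mt-Atp6: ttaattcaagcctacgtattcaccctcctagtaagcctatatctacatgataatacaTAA
Gm10925: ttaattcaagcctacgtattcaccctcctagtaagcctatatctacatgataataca
A read from within the shared stretch could not be assigned to one of the pair by its letters.

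Depth was similar between the groups. The FPKM steps implied 15075832 to 20787456 counted reads or fragments in VCD libraries and 15705351 to 18661495 in PBS libraries. The label of the stage was checked against markers. Zscan4d lay between 188 and 356 FPKM in VCD libraries and between 279 and 312.5 in PBS libraries, against at most 2.02 in morulae. Bmp15, a growth factor of the oocyte, lay between 1221 and 1713 FPKM with VCD and between 1326 and 1797 with PBS, and at most 2.2 in morulae. Tead4, a factor of later lineage choice, was at most 0.408 FPKM with VCD and at most 0.165 with PBS, against 40.4 to 54.6 in morulae. By these markers both groups carried the profile of the labelled stage. Not every marker separated the stages. The oocyte marker Zp3 had 24.9 to 32.2 FPKM with VCD, 24.4 to 33.3 with PBS and 22.8 to 43.1 in morulae. Sox2, listed as a morula marker, was at most 0.137 FPKM with VCD, 0.150 with PBS and 0.0845 in morulae. Of the markers of other cells some were near 0 and others were read in all 8 libraries. The granulosa hormone Amh reached at most 0.0338 FPKM with VCD and 0.0355 with PBS, and the sperm protein Tnp1 at most 0.152 with VCD and 0 with PBS. The white blood cell marker Ptprc reached at most 0.0181 with VCD and 0 with PBS. By contrast the aromatase Cyp19a1 lay between 1.84 and 3.31 FPKM with VCD and between 2.29 and 3.28 with PBS. The cumulus matrix gene Tnfaip6 reached 2.33 with VCD and 5.86 with PBS, and the globin gene Hba-a1 2.78 with VCD and 4.22 with PBS. The protamine gene Prm2 reached 0.890 with VCD and 1.33 with PBS. Akap4, of the sperm tail, lay between 0.186 and 0.421 FPKM with VCD and between 0 and 0.0531 with PBS. The part of such RNA in the results below was not tested. None of 16 library measures, which included depth, genes detected and the share of FPKM in gene groups, differed between the agents by exact permutation tests (two-sided, smallest exact p = 0.114, adjusted p = 0.731, where the design allows no p below 0.0286).

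The comparison asked which transcripts differed in 2-cell embryos cultured with VCD. No gene passed at an adjusted p below 0.05 (0 of 11369, percent called 0.0). An unadjusted p below 0.05 was found for 391 genes (3.44%), of which 185 (1.63%) were higher and 206 (1.81%) lower with VCD. With median-ratio scaling in place of the deposited scaling, 162 were higher and 282 lower. The test was limma with a variance trend on log2(FPKM + 1), and its p-values were adjusted by Benjamini and Hochberg's method over all 11369 genes. Voom on reads recovered from the FPKM steps called 0 genes, with 339 below 0.05. Fold changes are on that log2 scale, VCD minus PBS, which understates differences of genes of low abundance. The smallest adjusted p was 0.139, for Rnu73b, and the next was 0.850.

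On the log2(FPKM + 1) scale most genes were measured closely enough to bound the difference. Over all genes the median log2 fold change was 0.01, with a median standard error (SE) of 0.17, and the central 90% lay between -0.33 and 0.30. The 95% confidence interval lay within a 2-fold change in either direction for 10744 genes (94.5%) and within a 1.5-fold change for 7347 (64.6%). Among the 3883 genes with a mean of 10 FPKM or more, 2990 (77.0%) were held within 1.5-fold. These bounds hold for FPKM + 1. For genes of low abundance the added 1 narrows them, so larger changes of FPKM itself are not bounded there. Only 6039 of the 11369 genes reached a mean of 5 FPKM in the higher group. The 4 VCD and 4 PBS values did not overlap for 246 genes (2.16%), with VCD above PBS in 141 (1.24%) and below in 105 (0.924%).

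**Figure D1:**
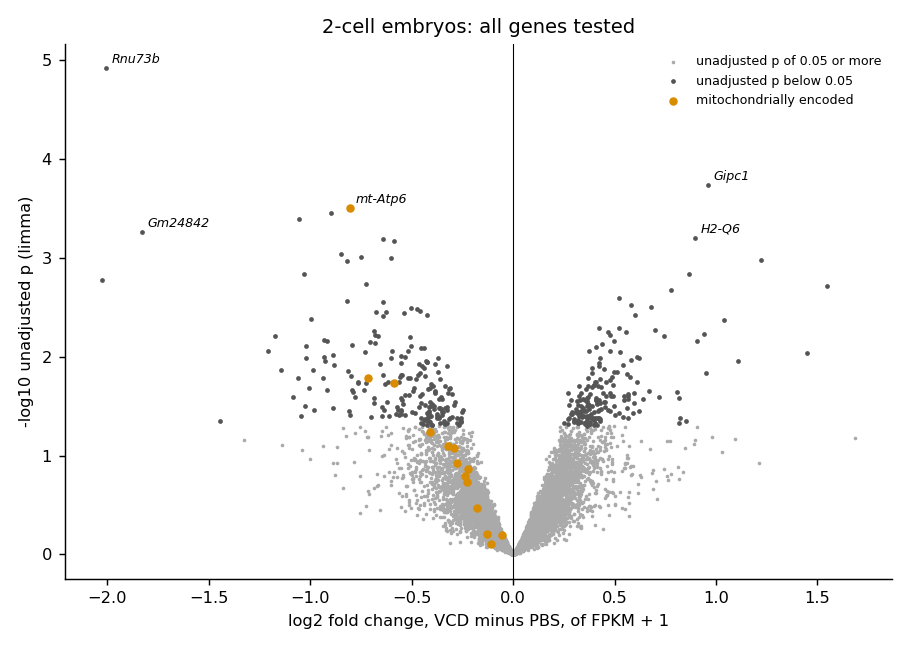
Log2 fold change of FPKM + 1, VCD minus PBS (x axis), against -log10 of the unadjusted limma p (y axis) for all 11369 genes tested in 2-cell embryos, each a point. Rnu73b stands highest with an adjusted p of 0.139, and all 14 listed mitochondrially encoded genes (protein-coding and ribosomal RNA), in orange, lie left of 0.

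By annotated class, 9086 of the tested genes were protein coding (79.9%), yet only 7 of the 20 genes of smallest p were. An unadjusted p below 0.05 was found for 2.80% of the protein-coding genes, for 18.4% of 38 small nuclear RNAs, 15.4% of 26 small nucleolar RNAs and 10.1% of 69 genes annotated as miRNA. Those short RNA classes had medians of 2.15, 2.44 and 3.23 FPKM in that order, against 5.93 for protein-coding genes. Their median SE was 0.42, 0.40 and 0.44, against 0.16, so they were low and noisy. Long intergenic RNAs had 39 of 598 below 0.05, with 6 higher and 33 lower with VCD, and antisense RNAs had 16 of 239, with 3 higher and 13 lower. Protein-coding genes went the other way, with 150 higher and 104 lower. Over all genes 185 were higher and 206 lower. That split was 162 and 282 with median-ratio scaling, and 233 and 461 without VCD replicate 4. The class counts were made with the deposited scaling and all libraries only, and they were not tested.

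Rnu73b rests on few reads in both groups and had almost none with VCD. Its values were 0, 0, 0.748 and 0 FPKM in VCD libraries, against 3.59, 3.02, 6.08 and 2.51 FPKM in PBS libraries. These are 0, 0, 1 and 0 reads with VCD and 4, 4, 7 and 3 with PBS. Every PBS library had reads while 3 of the 4 VCD libraries had none. All VCD values were below 1 FPKM and all PBS values above it, so Rnu73b passed the filter only through the PBS libraries. Any gene that passes in that way has groups that do not overlap, so the lack of overlap carries no weight here. The log2 fold change was -2.01 (SE 0.26, limma adjusted p = 0.139). Its neighbour Snord73a had 0.975, 6.37, 7.81 and 7.47 FPKM with VCD and 3.75, 3.94, 5.44 and 7.85 FPKM with PBS (log2 fold change -0.07, SE 0.44), with groups that overlapped. The host gene Rps3a1, a protein of the small ribosomal subunit, had 96.7, 93.9, 105 and 152 FPKM with VCD and 124, 111, 103 and 103 with PBS, a difference of -0.00 (SE 0.16). Neither Rps3a1 nor Snord73a was low in all VCD libraries as Rnu73b was. Snord73a also rests on few reads, 29 with VCD and 24 with PBS, and its lowest value of all was in VCD replicate 1. Reads of unspliced host RNA cannot be told from those of the small RNAs. Rnu73b passed with the replicate number as a block (adjusted p = 0.0338) and with array weights (0.0491), and its adjusted p ranged from 0.0338 to 0.917 over its alternatives.

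Gipc1, a scaffold of receptor trafficking, was low in both groups and higher with VCD. Its values were 1.99, 1.34, 2.27 and 1.53 FPKM in VCD libraries, against 0.737, 0.248, 0.356 and 0.377 FPKM in PBS libraries, with no overlap. All PBS values were below 1 FPKM, so Gipc1 passed the filter only through the VCD libraries. The lack of overlap comes with passing in that way and carries no weight. The log2 fold change was 0.96 (SE 0.17, limma adjusted p = 0.850), from 221 reads with VCD and 49 with PBS. H2-Q6, a class I histocompatibility gene, also had VCD values above all PBS values. They were 2.83, 4.41, 5.98 and 4.52 FPKM with VCD and 1.99, 1.54, 2.19 and 1.73 FPKM with PBS (log2 fold change 0.90, SE 0.19, limma adjusted p = 0.850). Of its 50-base words, 35.0% occur in other annotated transcripts, most often of H2-Q7, which overlapped between the groups at 1.24 ± 0.638 FPKM with VCD and 1.05 ± 0.518 with PBS (SD, n = 4 each), so reads may have been shared out among related genes.

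Rdh14, a retinol dehydrogenase, was lower with VCD in every library. It had 5.60, 3.45, 5.63 and 3.74 FPKM with VCD, against 9.34, 11.3, 8.54 and 8.25 FPKM with PBS (log2 fold change -0.90, SE 0.17, limma adjusted p = 0.850). Rac1, a GTPase that drives actin remodelling, had 35.4, 35.4, 36.1 and 44.9 FPKM with VCD and 57, 72.0, 57.7 and 52.5 FPKM with PBS. VCD replicate 4 was the highest of its group and still below every PBS library (log2 fold change -0.64, SE 0.13, limma adjusted p = 0.850). Rac1 overlaps Daglb, an enzyme of lipid signalling that shares 50.3% of Rac1's words on the opposite strand, and without stranded counting their reads cannot be told apart in that stretch. Daglb had 3.002 ± 0.483 FPKM with VCD and 2.68 ± 0.0615 with PBS (SD, n = 4 each), a difference of 0.11 (SE 0.14).

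Gpx6, a glutathione peroxidase, was lower with VCD in every library. Its values were 9.67, 8.18, 9.19 and 8.27 FPKM with VCD, against 13.8, 11.8, 14.3 and 15.1 FPKM with PBS. The groups did not overlap (log2 fold change -0.59, SE 0.12, limma adjusted p = 0.850), and none of its words occur in another annotated gene. In morulae it averaged 0.03 FPKM with VCD and 0.06 with PBS, so it is a transcript of the earlier stage. No word sharing was found for Gipc1 or Rdh14 either.

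Gm24842, annotated as a small nuclear RNA, rests on few reads. It had 0, 0, 0 and 1.04 FPKM with VCD and 4.72, 0.992, 3.42 and 5.49 FPKM with PBS, in all 1 read against 13. PBS replicate 2 lay below VCD replicate 4, so the groups overlapped (log2 fold change -1.83, SE 0.37, limma adjusted p = 0.850).

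Of the other genes among the 20 of smallest p, pseudogenes and unnamed genes made up most. Gm8940, a processed pseudogene, had 7 reads with VCD and 29 with PBS (log2 fold change -1.06, SE 0.21), and 4930564D02Rik 18 and 69 (-0.85, SE 0.19). Both passed when all 16 embryo libraries shared 1 fit (adjusted p = 0.0336 and 0.0417). Gm7647 (-0.75), Gm10925 (-0.60), Olfr1343-ps1 (-0.82) and Hspe1-ps4 (-1.03) were lower with VCD on the log2 scale, and Gm7822 (1.22), Gm13273 (0.87) and Gm9057 (0.78) were higher. Gm25228 (-2.03) and Gm25208 (-0.72), annotated as miRNA genes, are identical over all 121 bases and share their words with 136 other genes, yet they were listed at 4.53 ± 3.26 and 20.3 ± 3.28 FPKM with VCD and at 18.2 ± 5.91 and 34.3 ± 6.75 with PBS (SD, n = 4 each). How such reads were shared out is not given in the sources used here, so the levels of these copies are uncertain. None of these genes passed.

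**Figure D2:**
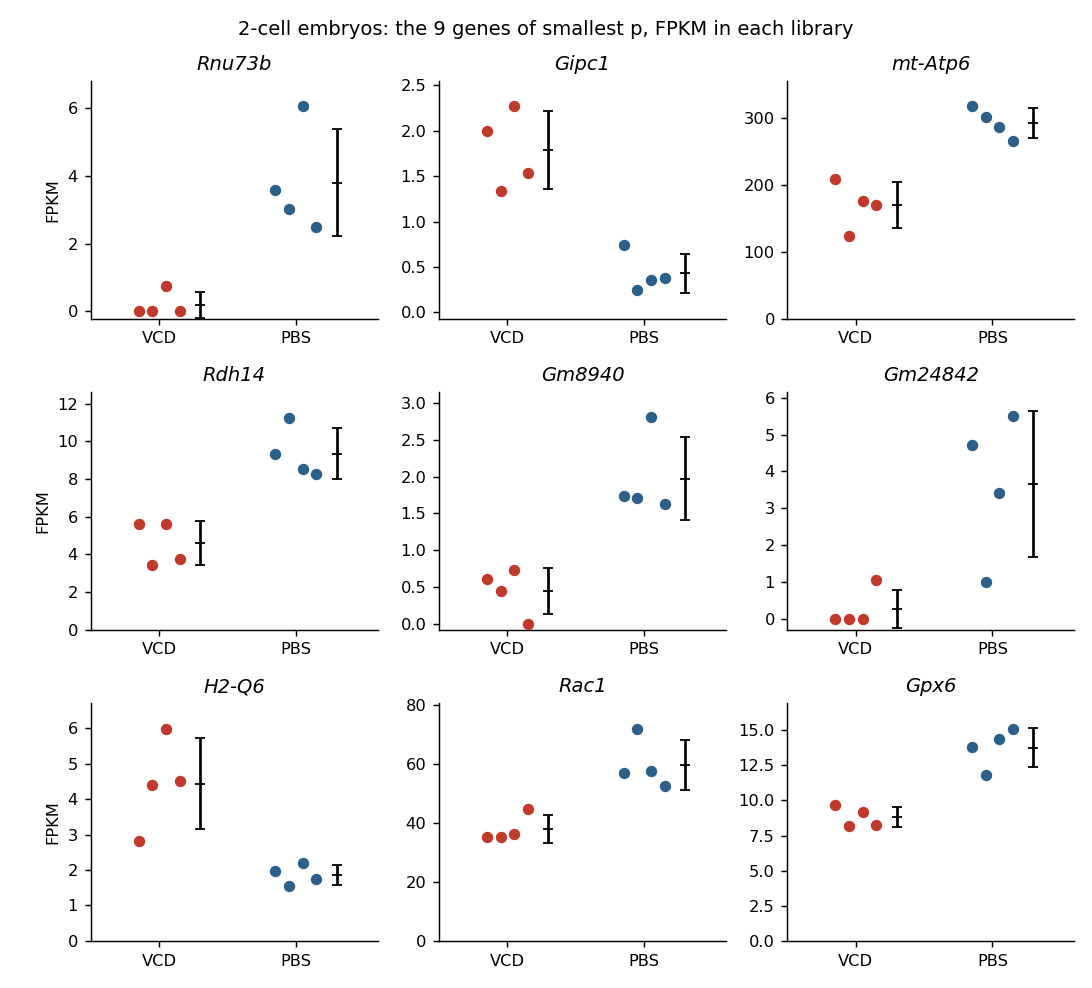
FPKM (y axis, linear) of the 9 genes of smallest p in each 2-cell library, with VCD in red and PBS in blue; bars show the mean and SD of 4 libraries. The groups overlap for Gm24842 and for none of the other 8, and no gene reached an adjusted p below 0.05. The genes were chosen by their p in these same values, so the lack of overlap follows from the choice. Of all genes 2.16% had groups that did not overlap.

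No transcript of the first wave of embryonic transcription passed the test. Of 24 fitted members 10 were positive and 14 negative (median -0.02), and 0 had an unadjusted p below 0.05, against 3.44% of all genes. Without VCD replicate 4 the count was 19 positive and 5 negative, with a median of 0.10. Zfp352, a zinc finger gene of that wave, had 368, 562, 591 and 334 FPKM with VCD and 475, 392.4, 423 and 500.5 FPKM with PBS (log2 fold change 0.01, 95% interval -0.41 to 0.43). Tdpoz4, which codes for a protein with a BTB domain, had 34.3, 51.8, 59.7 and 36.2 FPKM with VCD and 43.0, 29.5, 30.9 and 41.6 with PBS (0.30, SE 0.20). In both genes VCD replicates 2 and 3 were the highest of all 8 libraries.

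The spread of these genes was wider among the VCD libraries than among the PBS libraries. Their summed level was 1797, 2551, 2630.5 and 1697 FPKM with VCD and 2292, 2200.1, 2198 and 2057 FPKM with PBS. The SD was 490 FPKM with VCD and 97.2 with PBS, at means of 2169 and 2187 FPKM. All 6 fitted Zscan4 genes, named here after their values were seen, were lowest in VCD replicate 4 and highest in VCD replicate 2 or 3 of the 8 libraries. Zscan4f, for example, had 67.8, 121, 147 and 29.6 FPKM with VCD and 89.2, 110, 100.1 and 90.5 FPKM with PBS. The Zscan4 genes share words with each other, 86.8% in Zscan4f and 49.6% in Zscan4d, so they do not give separate measurements. The difference in spread was not tested.

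Early zygotic housekeeping genes, such as those of RNA and protein handling that start early, had 11 positive and 4 negative members of 15 (median 0.11). The count was 8 and 7 without VCD replicate 4 (median 0.02), and the median was 0.22 without VCD replicate 1. Ubb, a ubiquitin gene, averaged 419 ± 77.9 FPKM with VCD and 417 ± 43.8 with PBS (SD, n = 4 each), and Kpna2, an importin, 300.4 ± 31.6 with VCD and 275 ± 59.3 with PBS. Myc, a growth-promoting transcription factor, had 1.81, 1.56, 1.07 and 1.29 FPKM with VCD and 1.85, 4.28, 2.74 and 1.37 FPKM with PBS (log2 fold change -0.49, SE 0.24). Eif1a, a translation factor of the first wave, had 15.2, 18.2, 20.6 and 10.8 FPKM with VCD and 12.5, 15.2, 17.0 and 14.6 with PBS, a difference of 0.09 (SE 0.19).

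No gene of the stored oocyte RNA passed the test. Maternal effect genes, which act in the embryo from stores of the oocyte, had 21 positive and 7 negative members of 28 (median 0.09). Zbed3, by far the most abundant of them, averaged 14314 ± 2278 FPKM with VCD and 14901 ± 2451 with PBS (SD, n = 4 each). Pms2, a mismatch repair protein, had the smallest p of the list, with 3.20, 3.43, 4.22 and 4.18 FPKM with VCD against 2.31, 2.17, 2.48 and 2.26 FPKM with PBS. Its groups did not overlap (log2 fold change 0.52, SE 0.13, limma adjusted p = 0.999). Zar1, which stores and stabilizes maternal RNA, had 8.27, 11.5, 6.85 and 12.1 FPKM with VCD and 20.2, 12.8, 11.1 and 14.4 with PBS (-0.55, SE 0.21), with overlap. Genes of the zona, secretion and fusion had 7 positive and 6 negative members of 13 (median 0.00), and those of MII arrest and meiosis 14 and 8 of 22 (median 0.05). Bmp15 differed by -0.00 (SE 0.14) and Wee2, a kinase of meiotic arrest, by -0.03 (SE 0.16). Sohlh2, an oocyte transcription factor, averaged 10.5 ± 1.99 FPKM with VCD and 7.21 ± 1.41 with PBS (0.48, SE 0.17).

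The machinery that degrades stored RNA had 21 positive and 6 negative members of 27 (median 0.06). Btg4, the adaptor that brings the deadenylase to maternal RNA, averaged 5268 ± 423 FPKM with VCD and 5121 ± 398 with PBS (SD, n = 4 each), with a 95% interval of -0.19 to 0.27 on the log2 scale. Cnot8, a deadenylase subunit, had 212, 244, 238 and 246 FPKM with VCD and 159, 206, 226 and 162 with PBS (0.33, SE 0.13). Obox homeobox genes, which take part in the activation of the embryonic genome, had 3 positive and 5 negative members of 8. Obox5, the most abundant, had 1758, 1823, 1895 and 1662 FPKM with VCD, against 1951, 1962, 1923 and 2141 FPKM with PBS. These values did not overlap, but the difference was small (-0.16, SE 0.09, 95% interval -0.37 to 0.05).

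The list of mitochondrially encoded genes held the protein-coding and ribosomal RNA genes and no transfer RNA. The estimate was negative for all 14 of its fitted members, against 46.3% of all genes, and their median was -0.26 on the log2 scale. The 1 fitted mitochondrial transfer RNA, mt-Tp, had 1.98, 2.15, 3.17 and 6.74 FPKM with VCD and 0.950, 0, 5.52 and 10.6 FPKM with PBS, a positive estimate with a wide error (0.26, SE 0.67). Under quantile or median-ratio scaling, or with the total taken without these genes, at most 1 was positive and the median lay between -0.28 and -0.20. Leaving out 1 library moved the median more, to -0.16 without VCD replicate 1 (1 positive) and to -0.37 without VCD replicate 3 (1 positive) or 4 (0 positive), with 2 positive without VCD replicate 2. Array weights gave -0.39. An unadjusted p below 0.05 was found for 3, against 1.81% of all genes in that direction, and none passed. All 3, mt-Atp6, mt-Co3 and mt-Nd4l, share 98.8% to 99.9% of their words with copies on chromosome 1. No member that shares under 1% of its words had an unadjusted p below 0.05. mt-Atp6 had 209, 124, 176 and 169 FPKM with VCD, against 317, 302, 286 and 265 FPKM with PBS. It was the only member with groups that did not overlap (-0.80, SE 0.15, limma adjusted p = 0.850). mt-Co3, which codes for part of complex IV, had 4.74, 2.76, 4.74 and 9.14 FPKM with VCD and 8.20, 9.23, 8.57 and 9.08 with PBS (-0.71, SE 0.25), so VCD replicate 4 lay among the PBS libraries. mt-Nd4l, a subunit of complex I, averaged 2.85 ± 1.118 FPKM with VCD and 4.67 ± 0.952 with PBS (-0.58, SE 0.21).

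The 7 members that share 50% or more of their words with nuclear copies are the ones whose levels are uncertain. Their estimates ran from -0.80 to -0.11 with a median of -0.41. The 4 members that share under 1% of their words, mt-Nd1, mt-Nd6, mt-Cytb and mt-Rnr1, ran from -0.32 to -0.13 with a median of -0.26. mt-Cytb, of complex III, had 5574, 6888, 9534 and 6835 FPKM with VCD and 8171, 8995, 8216 and 9296 FPKM with PBS. VCD replicate 3 was the highest of all 8 libraries there, and VCD replicate 1 the lowest (-0.29, SE 0.15). Summed over those 4, the level was 9217, 10369, 15137 and 11755 FPKM with VCD and 13178, 15134, 13296 and 14452 with PBS. mt-Rnr2, the large ribosomal RNA, differed least (-0.05, SE 0.11).

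The copies on chromosome 1 lie side by side between 24611535 and 24616197 and had the same sign as their mitochondrial counterparts. The estimate was negative for all 7 fitted copies, with a median of -0.42. The copies share words with the mitochondrial genes, so they do not give separate measurements. Gm10925 had 227, 170, 247 and 201 FPKM with VCD, against 354, 329, 298 and 293 FPKM with PBS. Gm28439, which holds 62.2% of the words of mt-Nd4, had 25.3, 24.1, 31.3 and 24.0 FPKM with VCD and 34.7, 33.7, 36.8 and 39.5 with PBS. Both had groups that did not overlap (log2 fold changes -0.60 and -0.46), as did 0.924% of all genes with VCD below PBS. Gm10925 is among the 20 genes of smallest p, which were chosen by these same values. Adding mt-Atp6 and Gm10925 gave 435, 294, 423 and 370.1 FPKM with VCD against 672, 631, 584 and 559 FPKM with PBS, a log2 difference of -0.70. If each read was counted once, that sum does not depend on how reads were split between the pair. Words of mt-Atp6 occur in 2 other annotated genes, Gm10925 among them, so the sum may not hold every copy. The share of all FPKM in mitochondrially encoded genes was 4.86%, 5.48%, 7.70% and 6.29% with VCD and 6.37%, 7.25%, 6.93% and 7.21% with PBS. It was highest of all in VCD replicate 3, and the groups overlapped (exact permutation test, two-sided, n = 4 each, p = 0.229, adjusted p = 0.731). In such bulk measurements fewer mitochondria or cells of a type and less RNA in each cannot be told apart.

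**Figure D3:**
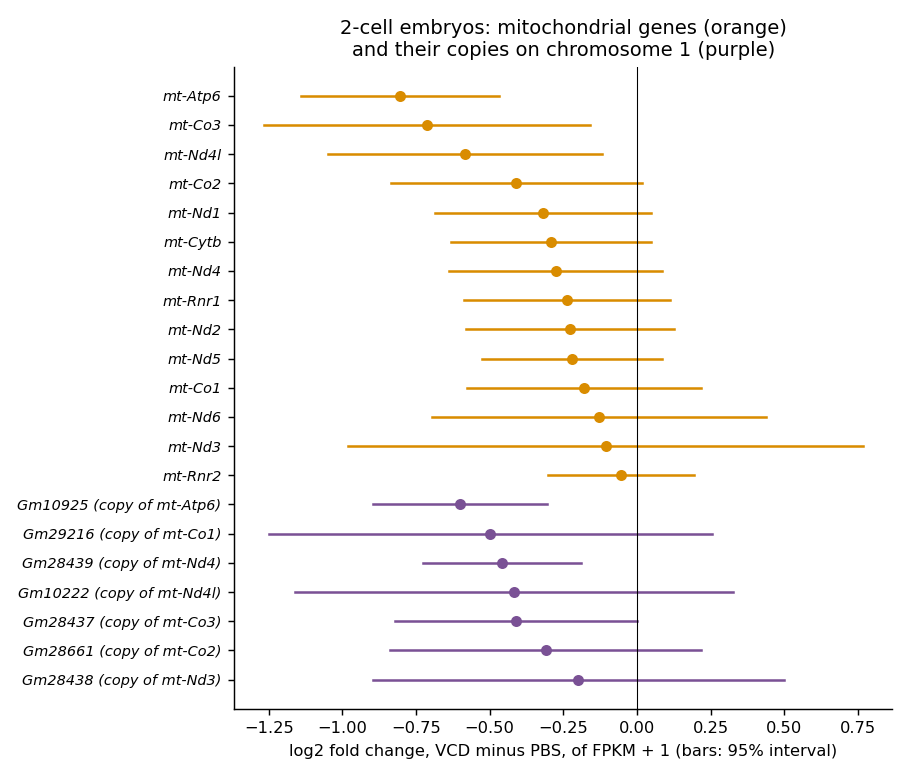
Log2 fold change of FPKM + 1, VCD minus PBS (x axis), with 95% confidence intervals (bars) for the 14 fitted mitochondrially encoded protein-coding and ribosomal RNA genes (orange) and the 7 fitted copies on chromosome 1 (purple). Every estimate plotted lies left of 0, from -0.80 for mt-Atp6 to -0.05 for mt-Rnr2.

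The nuclear-coded partners of these proteins did not share that sign. The ATP synthase and cytochrome oxidase genes had 9 positive and 9 negative members of 18 (median 0.01), and those of complexes I and III had 16 and 18 of 34 (median -0.02). Without VCD replicate 4 the counts were 5 positive and 13 negative (median -0.19) for the first group, and 9 and 25 (median -0.17) for the second. Cox8a, a cytochrome oxidase subunit, had 298, 212, 277 and 473 FPKM with VCD and 366, 345, 323 and 280 with PBS (-0.11, SE 0.21). Atp5b, the catalytic subunit of the ATP synthase, averaged 194 ± 18.1 FPKM with VCD and 189 ± 10.9 with PBS (SD, n = 4 each; 95% interval -0.20 to 0.27). Tfam, which packages and transcribes mitochondrial DNA, had 4.69, 6.38, 5.08 and 6.25 FPKM with VCD and 6.47, 2.34, 4.22 and 6.23 with PBS (0.24, SE 0.24).

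Ribosome biogenesis genes leaned the other way, with 42 positive and 9 negative members of 51 and a median of 0.12, against 53.7% positive and a median of 0.01 over all genes. Over the scaling alternatives 38 to 44 were positive. Nop16, a nucleolar assembly factor, had 11.5, 15.1, 16.9 and 16.2 FPKM with VCD and 9.53, 12.8, 12.4 and 9.42 with PBS (0.41, SE 0.16). Ftsj3, which methylates ribosomal RNA, had 6.80, 7.47, 8.39 and 7.24 FPKM with VCD and 5.62, 4.96, 4.68 and 7.22 with PBS (0.37, SE 0.15). Brix1 and Npm1, the most abundant members, differed by -0.05 (SE 0.20) and -0.06 (SE 0.17). Without VCD replicate 4 the list had 34 positive and 17 negative members and a median of 0.07. No member passed.

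Ribosomal proteins had 30 positive and 32 negative members of 62 (median -0.00). Without VCD replicate 4 the count was 7 positive and 55 negative, with a median of -0.20. Rps2, of the small subunit, had 57.3, 52.5, 37.8 and 86.3 FPKM with VCD and 74.0, 86.8, 90.2 and 56.7 with PBS (-0.43, SE 0.23), and its 43.0% of words shared with pseudogenes make its level uncertain. Translation initiation factors had 21 positive and 12 negative members of 33 (median 0.06), and 14 and 19 without VCD replicate 4 (median -0.03). Eif4g2, a scaffold of cap-independent initiation, had 81.3, 85.8, 99.0 and 100.1 FPKM with VCD against 73.2, 75.2, 81.0 and 72.0 FPKM with PBS, with no overlap (0.27, SE 0.11). Splicing factors had 21 and 13 of 34 (median 0.06), which became 15 and 19 (median -0.05) without VCD replicate 4, and RNA polymerase II and elongation 18 and 18 of 36 (median 0.02).

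Chromatin genes that modify DNA and histones had 32 positive and 12 negative members of 44 (median 0.10), which became 20 and 24 without VCD replicate 4 (median -0.00). Suz12, of the Polycomb complex, had 167, 242, 273 and 319 FPKM with VCD and 198, 216, 236 and 234 with PBS (0.14, SE 0.18). Linker and variant histones and their chaperones had 8 positive and 9 negative members of 17. Asf1a, a chaperone of histones H3 and H4, averaged 64.6 ± 9.09 FPKM with VCD and 83.4 ± 7.51 with PBS (-0.37, SE 0.13), and H1f0, a linker histone, 20.8 ± 2.29 with VCD and 32.3 ± 10.8 with PBS (-0.56, SE 0.20). Asf1a shares 43.1% of its words with the overlapping gene Mcm9, which differed by -0.01 (SE 0.14).

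**Figure D4:**
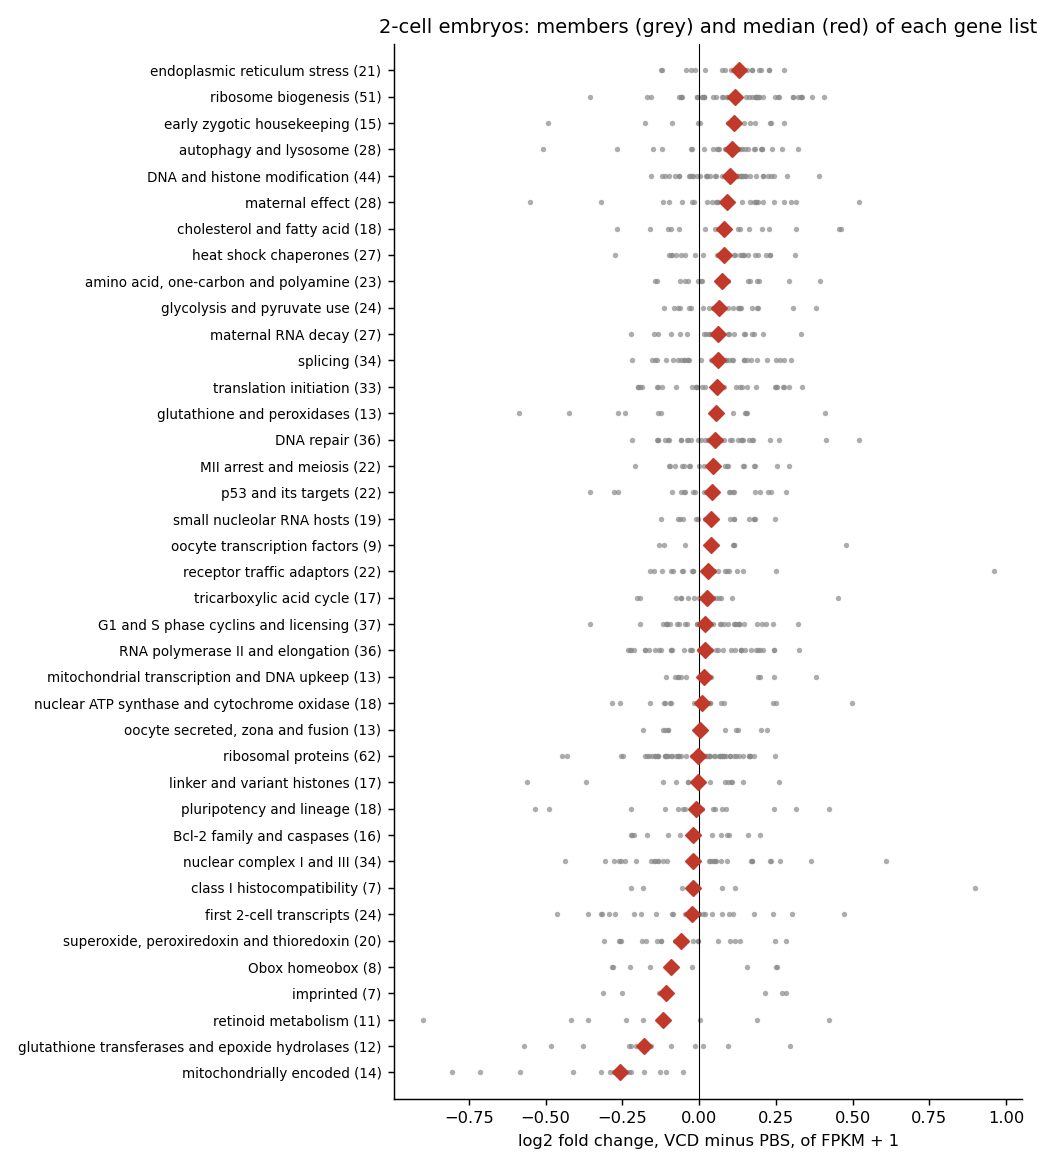
Log2 fold change of FPKM + 1, VCD minus PBS (x axis), of each fitted member (grey) and the median (red) of gene lists with at least 5 fitted members, whose number stands in brackets. The mitochondrially encoded genes have the lowest median, -0.26, and genes of endoplasmic reticulum stress the highest, 0.13.

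Genes that handle oxidants and foreign compounds showed no common direction. Glutathione synthesis genes and peroxidases had 7 positive and 6 negative members of 13 (median 0.05), 2 of them with groups that did not overlap, Gpx6 and Gclm, where 2.16% of all genes had such groups. The count was 6 positive and 7 negative without VCD replicate 4 (median -0.08). Gclm, the regulatory subunit of the enzyme that limits glutathione synthesis, had 2.06, 1.90, 1.85 and 2.75 FPKM with VCD, against 3.35, 2.85, 3.24 and 3.33 FPKM with PBS (-0.43, SE 0.14). Superoxide dismutases, peroxiredoxins and thioredoxins had 6 positive and 14 negative members of 20 (median -0.06). Prdx1, an abundant peroxiredoxin, averaged 454 ± 89.9 FPKM with VCD and 537 ± 71.5 with PBS (-0.25, SE 0.15). Glutathione transferases and epoxide hydrolases had 3 positive and 9 negative members of 12. Their median of -0.18 became -0.06 without VCD replicate 2 and -0.09 without PBS replicate 2, and 19 of the 31 listed were too low to be tested. Mgst3, a microsomal transferase, had 101, 45.3, 38.8 and 98.2 FPKM with VCD and 102, 90.7, 76.0 and 72.5 with PBS, and Gstm5 36.3, 14.8, 14.3 and 36.2 with VCD and 39.7, 33.8, 32.0 and 26.3 with PBS. In both genes VCD replicates 2 and 3 lay below every other library while VCD replicates 1 and 4 lay among or above the PBS libraries.

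No marker of damage or death passed the test. The p53 gene and its targets had 13 positive and 9 negative members of 22 (median 0.04). Cdkn1a, which p53 induces to halt the cell cycle, had 4.65, 3.61, 4.44 and 8.78 FPKM with VCD and 4.67, 7.04, 10.5 and 6.11 with PBS (-0.36, SE 0.26). Mdm2, which degrades p53, averaged 52.8 ± 7.36 FPKM with VCD and 46.1 ± 2.63 with PBS (0.18, SE 0.12). The Bcl-2 family and caspases had 6 positive and 10 negative members of 16 (median -0.02), and Bcl2l10, a very abundant survival factor of the oocyte, averaged 9060.4 ± 1175 FPKM with VCD and 9403 ± 423 with PBS (95% interval -0.32 to 0.19). DNA repair genes had 23 and 13 of 36 (median 0.05), among them Xrcc3, a recombination factor (0.41, SE 0.16).

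Heat shock chaperones had 19 positive and 8 negative members of 27 (median 0.08), and genes of endoplasmic reticulum stress 16 and 5 of 21 (median 0.13). Hspa4, a cytosolic chaperone, had 6.67, 5.82, 5.79 and 7.09 FPKM with VCD against 4.86, 5.40, 4.65 and 4.70 FPKM with PBS, with no overlap (0.31, SE 0.12). Pdia3, which forms disulfide bonds in the endoplasmic reticulum, had 36.4, 48.4, 46.7 and 49.4 FPKM with VCD and 41.0, 38.0, 40.4 and 34.0 with PBS (0.23, SE 0.13). Autophagy and lysosome genes had 22 positive and 6 negative members of 28 (median 0.11). Atg14, which starts the autophagosome, lay above PBS in every VCD library at 11.6, 11.9, 10.2 and 12.3 FPKM with VCD and 8.07, 9.85, 9.20 and 8.90 FPKM with PBS (0.32, SE 0.12). Atg10, which helps conjugate Atg5 to Atg12, lay below it at 7.01, 5.77, 6.37 and 9.36 FPKM with VCD and 9.97, 11.3, 10.8 and 9.66 FPKM with PBS (-0.51, SE 0.15). So the members of that list with the smallest p had opposite signs, and neither passed.

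Cell cycle and licensing genes had 23 positive and 14 negative members of 37 (median 0.02). Glycolysis and pyruvate genes had 18 and 6 of 24 (median 0.06), and Pdk1, which restrains pyruvate dehydrogenase, had 6.28, 6.56, 6.71 and 6.58 FPKM with VCD and 3.80, 6.15, 6.06 and 3.64 with PBS (0.38, SE 0.17). The tricarboxylic acid cycle had 9 and 8 of 17, amino acid, one-carbon and polyamine genes 17 and 6 of 23, and cholesterol and fatty acid genes 13 and 5 of 18. Ldhb, the lactate dehydrogenase form of the oocyte and early embryo, averaged 657 ± 76.9 FPKM with VCD and 649 ± 133 with PBS (SD, n = 4 each).

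Retinoid genes had 3 positive and 8 negative members of 11 (median -0.12). Crabp2, which carries retinoic acid, had 347, 219, 180 and 295 FPKM with VCD and 412, 314, 266 and 322 with PBS (-0.36, SE 0.21), and Rarg, a receptor for it, averaged 2.57 ± 0.308 FPKM with VCD and 1.71 ± 0.603 with PBS (0.42, SE 0.18). Class I histocompatibility genes other than H2-Q6 ran from -0.22 to 0.12, with B2m, their common light chain, at -0.05 (SE 0.20). Receptor traffic adaptors other than Gipc1 ran from -0.16 to 0.25, with Rab7, of late endosomes, at 0.01 (SE 0.12).

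Genes of pluripotency and lineage had 9 positive and 9 negative members of 18, and imprinted genes 3 and 4 of 7. Klf17, an early embryonic transcription factor, averaged 256 ± 34.8 FPKM with VCD and 254 ± 10.5 with PBS (0.00, SE 0.12). Snrpn, an imprinted splicing gene, had 16.3, 20.1, 18.3 and 15.9 FPKM with VCD against 14.8, 12.9, 15.1 and 14.3 FPKM with PBS, with no overlap (0.28, SE 0.12). Of the cumulus and granulosa markers 4 of 19 were fitted. Their summed level over the list was 6.74 to 8.65 FPKM with VCD and 6.84 to 12.5 with PBS. Sperm markers summed to 24.2 to 29.5 FPKM with VCD and 21 to 28.3 with PBS, most of it from Odf2, and blood markers to 3.28 to 9.32 with VCD and 4.80 to 10.3 with PBS.

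The VCD libraries differed more among themselves than the PBS libraries did. The median SD over genes, on the log2 scale, was 0.256 with VCD and 0.196 with PBS, and it was larger with VCD for 7364 genes (64.8%). VCD replicate 4 stood farthest from its group, with a median distance of 0.291 on the log2 scale from the mean of the other 3, against 0.173 to 0.231 for the other VCD libraries and 0.161 to 0.194 for the PBS libraries. Without it, the share of genes with a larger SD in VCD was 51.6%, close to an even split. The difference in spread was not tested.

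VCD replicate 4 differed from the others of its group in named gene groups. Ribosomal protein genes were higher there in 61 of 62 members, by a median of 0.73 on the log2 scale, nuclear ATP synthase and cytochrome oxidase genes in 17 of 18 (0.68), and complex I and III genes in 30 of 34 (0.51). The first 2-cell transcripts were lower there in 19 of 24 members, with a median of -0.53. Over all genes the median was 0.12. In VCD replicates 1, 2 and 3 the first 2-cell transcripts stood at -0.21, 0.42 and 0.52 relative to the other 3 of the group, and the ribosomal proteins at -0.15, -0.35 and -0.16. Among the PBS libraries the first 2-cell transcripts stayed between -0.11 and 0.06 and the ribosomal proteins between -0.23 and 0.15. Dppa3, a stored oocyte factor that guards methylated DNA, had 252, 256, 280.4 and 491 FPKM with VCD and 254, 235, 297 and 341 FPKM with PBS, with VCD replicate 4 again apart.

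The medians of most gene lists depended on single libraries. Of 39 reported lists with 5 or more fitted members, the median changed sign in 23 when some 1 library was left out and moved by more than 1.5 times in another 13. It did neither in 3, those of heat shock chaperones, of autophagy and lysosome genes and of retinoid genes. Without VCD replicate 4 the majority turned from positive to negative in 8 lists. Beside translation, splicing, chromatin and glutathione genes, these were the oocyte transcription factors (4 and 5), the genes of the zona, secretion and fusion (6 and 7), receptor traffic adaptors (10 and 12) and the hosts of small nucleolar RNAs (5 and 14).

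**Figure D5:**
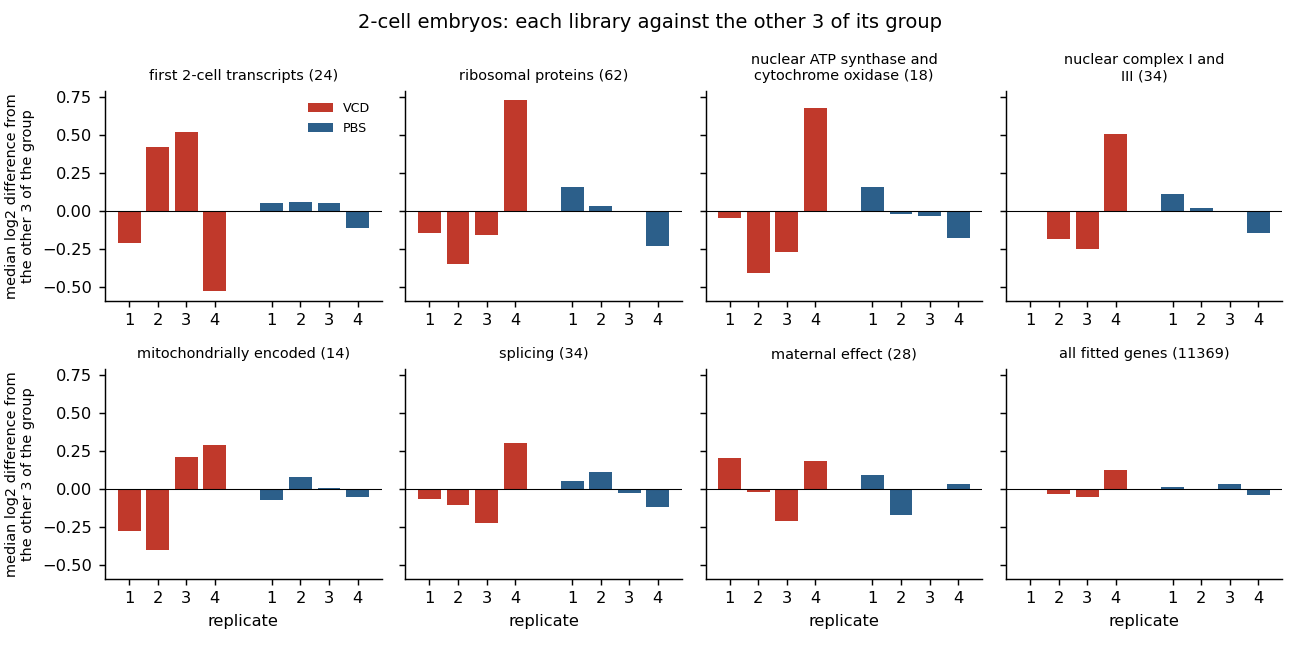
Median log2 difference of each 2-cell library from the mean of the other 3 of its group (y axis) over the fitted members of 7 gene lists and over all fitted genes, with VCD replicates in red, left of PBS replicates in blue. VCD replicate 4 stands at 0.73 for ribosomal proteins and at -0.53 for the first 2-cell transcripts, while the PBS libraries stay between -0.23 and 0.15 for these lists.

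The difference of VCD and PBS in 2-cell embryos was set against that in morulae in 1 fit over the 16 embryo libraries. No gene passed (0 of 14144 by limma, smallest adjusted p = 0.176, with 502 at an unadjusted p below 0.05). Gm13273, an unprocessed pseudogene, came first. Its log2 fold change was 0.87 in 2-cell embryos and -1.90 in morulae, a difference of 2.77 (SE 0.47, limma adjusted p = 0.176). Rac1 had -0.64 in 2-cell embryos and 1.01 in morulae, a difference of -1.64 (SE 0.37, limma adjusted p = 0.542), and Gclm -0.43 and 0.65, a difference of -1.07 (SE 0.22, limma adjusted p = 0.429). mt-Nd4l had -0.58 and 0.87 (limma adjusted p = 0.429). mt-Atp6 averaged 193 FPKM with VCD and 181 with PBS in morulae. These contrasts set the 2-cell effect against the morula effect; that they differ was not shown for any gene.

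At the edge of the rule, Adat1, a tRNA deaminase, was just inside where the value that decides, the lowest of the 4 highest, was 1.00028 FPKM, and Nol6, a nucleolar protein, just outside with 0.99965. Of the tested genes 9341 were at 1 FPKM or more in all 8 libraries, 3 passed only through VCD libraries and 4 only through PBS libraries. Gipc1 was among those 3 and Rnu73b among those 4.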

How the data were processed

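The files hold FPKM per Ensembl gene and library, deposited by the authors; the unit was read from the values, since no header names it. The submitters' processing notes name Bowtie2 2.2.3, TopHat2 2.0.12 and the build galGal4, a chicken assembly, but all 34228 identifiers are mouse Ensembl identifiers, so symbols, lengths, positions and sequences were taken from GENCODE M21 (GRCm38). FPKM times exon length fell on whole multiples of 1 step for about 91.1% of values below 200 reads (within 0.01 of a whole number), which gave the depth and the read numbers; these describe counting only. Whether reads were counted by strand is not given in the sources used here.

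Genes that reached 1 FPKM in 4 or more of the 8 libraries were tested on log2(FPKM + 1) with limma 3.58.1 (R 4.3.3), with a variance trend and without a replicate block, and p-values were adjusted by Benjamini and Hochberg's method. Library measures were compared by exact permutation tests (scipy 1.17.1). The comparison with morulae used 1 fit over the 16 embryo libraries. Scripts were tested on simulated data. Word sharing is the percentage of a gene's 50-base words found in other annotated genes. Genes named are the 20 of smallest p, a panel, the 2 most abundant members and the 2 of smallest p of each list, and the genes at the edge of the filter; partners that share sequence, position or host with them, other marker genes, mitochondrial members and the Zscan4 genes were added after values were seen. Members and lists were chosen with earlier results of these data known. Alternatives were other pseudocounts, filters, scalings, array weights, a replicate block, voom on recovered reads, and leaving out each library. MII oocytes were not used here. 1 gene list and 1 short RNA are not reported here.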

Additional observations from a re-analysis of the deposited data

Results flagged for a closer look

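Of 100 groups of 4 libraries checked for a single library far from the others (a gap above Dixon's 95% critical value), 6 stood out, and chance marks about 1 in 20. Ribosomal protein genes took 0.552% of FPKM in VCD replicate 4, against 0.392% to 0.418% in the other VCD libraries. Rac1 stood at 44.9 FPKM there, against 35.4 to 36.1, and Dppa3 at 491 FPKM, against 252 to 280.4. Gm24842 stood at 1.04 FPKM there and Rnu73b at 0.748 FPKM in VCD replicate 3, with 0 in the other 3 libraries; each rests on 1 read, and with 3 values at 0 any single read stands out, so these carry no information. Gm8940 stood at 2.81 FPKM in PBS replicate 3, against 1.62 to 1.74 in the other PBS libraries.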

How the results depend on the processing

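No gene passed an adjusted p below 0.05 by limma under the other pseudocount, filters, scalings, no variance trend or voom, nor without any 1 library (0 to 0). With the replicate number as a block 1 gene passed, with array weights 1 (Rnu73b in both), and with all 16 embryo libraries in 1 fit 2 (Gm8940 and 4930564D02Rik), all lower with VCD; the cause was not tested. Deviations of same-numbered libraries from their group means had correlations of 0.163, -0.0572, -0.0168 and -0.152. Those of differently numbered libraries ran from -0.164 to 0.159. Such weak correlations cannot settle whether the numbers pair the samples, which the labels do not say. The block left 375 genes at an unadjusted p below 0.05. That count, 391 as reported, was 1052 with no filter (31655 genes tested), 100 with 10 FPKM or more (3919 genes tested) and 1174 with array weights, and 295 to 694 leaving out 1 library, highest without VCD replicate 4. The comparison with morulae called 0 genes as reported, 1 with a pseudocount of 0.1 (Gm25332), and 0 to 2 leaving out 1 of the 2-cell libraries (Gm25332 and Halr1, without VCD replicate 1); no morula library was left out. Library measures that passed numbered 0 to 0, which says little, since 16 adjusted exact tests at this size could hardly pass; without VCD replicate 3, 2 had an unadjusted exact p below 0.05 (smallest 0.0286, adjusted 0.229). List medians, none of which carries a test, had the other sign in 89 of 833 alternatives, and 10 moved by more than 1 SD of the replicates. The 20 leading genes had the reported sign in all 362 alternatives run for them, and 4 of these passed the test. Since these genes were chosen by their p in the same libraries, the agreement of sign carries no weight. With 4 libraries a group and a median SE of 0.17, small differences of genes of low abundance were not detectable. Larger estimates in abundant genes did not pass either, such as -0.80 for mt-Atp6 and -0.64 for Rac1. That 0 genes passed therefore does not show that no gene differed.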
